A study of Mus musculus with 2 samples.

Results

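The 78 genes described here encode mitochondrial ribosomal proteins of the mouse. They were chosen by name: every protein-coding gene of the annotation whose symbol begins with Mrpl or Mrps followed by a number, out of 15371 annotated genes that carried at least 1 read. All 78 annotated genes of that form carried reads in both libraries. By the roles known for their proteins, 51 belong to the large subunit (Mrps30 and Mrps18a among them, despite their symbols) and 26 to the small subunit. The remaining gene, Mrps36, keeps its ribosomal name, but its protein is now placed in the 2-oxoglutarate dehydrogenase complex.

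The mitochondrial ribosome translates the few messengers of the mitochondrial genome, which encode core subunits of the respiratory chain. Its ribosomal RNAs come from the mitochondrial genome, while all of its proteins are encoded in the nucleus, translated in the cytosol and imported. Some of these proteins have relatives in the bacterial ribosome and others are found in mitochondria alone. Skeletal muscle, and its slow oxidative fibres above all, is rich in mitochondria.

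The tissue was gastrocnemius, the large muscle of the calf, from female mice of the hybrid strain B6CASTF1/J (B6 crossed with Cast) aged 2 months. Long-read RNA sequencing gave 1 library for animal 3 (replicate 1) and 1 for animal 4 (replicate 2), each made from 2 µg of total RNA with spike-in RNAs added. No treatment or genotype separates the animals, so the data form 1 group of 2 libraries, and the alleles of the hybrid were not separated. The labels give both libraries 1 and the same donor identifier, and only the animal numbers tell them apart.

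The libraries held 1349298 and 1359923 reads. Of 10 muscle fibre markers all carried reads, and they made up 26.3% of the first library and 25.4% of the second. The libraries differed in other tissue markers: 10 slow fibre markers took 0.164% and 0.955% of reads, 10 adipocyte markers summed to 1256 and 147 counts per 1000000 reads (CPM), and 10 nerve and Schwann cell markers to 694 and 100 CPM. Spike-ins took 3.64% and 1.49% of reads. In bulk tissue, fewer cells of a type and less RNA per cell cannot be told apart. Each test below sets the reads of these 2 libraries against each other, and none has a replicate check. With 2 animals, the smallest p of a two-sided sign test is 0.5. Intervals and p-values cover counting error only.

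The 78 genes together took 6344 reads in replicate 1 and 6845 in replicate 2. That is 0.470% of the library (95% Wilson interval 0.459% to 0.482%) and 0.503% (0.492% to 0.515%), or 4868 ± 235 CPM (SD, n = 2). The cytosolic ribosomal proteins, 81 genes, summed to 10267 ± 351 CPM, and 79 nuclear genes of the respiratory chain to 46038 ± 4244 CPM. The last set was chosen by symbols of the Nduf, Uqcr and Atp5 groups and part of the Cox group. It thus includes ATP synthase and leaves out succinate dehydrogenase. CPM here is a share of reads and is not divided by transcript length. Both libraries gave this order of the 3 sets.

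The genes of the large subunit summed to 3136 and 3375 CPM, and those of the small subunit to 1462 and 1542 CPM. The ratio of the large to the small sum was 2.15 and 2.19, beside a ratio of 51 to 26 genes. Within the large subunit, 30 genes with a bacterial relative summed to 1854 ± 79.0 CPM and 21 mitochondrion-specific genes to 1402 ± 90.4 CPM. Within the small subunit, 16 genes with a bacterial relative summed to 998 ± 55.5 CPM and 10 mitochondrion-specific genes to 503 ± 1.38 CPM (SD, n = 2 in each). The ratio of replicate 2 to replicate 1 ran from 1.00 to 1.10 over these 4 sums.

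Levels of single genes spanned 23.3-fold, from a mean of 10.3 CPM to a mean of 240 CPM, with a median of 47.8 CPM. The 10 most abundant genes took 31.3% of the reads of the whole set. At this depth 59 genes had 100 or more reads summed over both libraries and 3 had under 50. Of the 77 neighbouring pairs in the order of mean CPM, 72 had library ranges that overlapped, so most neighbours did not differ beyond the spread between the libraries.

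Mrpl42, a mitochondrion-specific protein of the large subunit, was first with 305 and 346 reads, or 226 and 254 CPM. Mrpl30 followed with 240 and 357 reads (178 and 263 CPM), and the ranges of these 2 genes overlapped. Mrpl33 had 213 and 281 reads (158 and 207 CPM). Both have bacterial relatives. Mrpl45, which holds the ribosome to the inner membrane near the exit of the nascent chain, had 178 and 254 reads (132 and 187 CPM). Replicate 2 was the higher library for all 4 genes.

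Mrpl12, a protein of the stalk that recruits translation factors, had 172 and 175 reads, and its 127 and 129 CPM lay close together. Mrpl18, a relative of the bacterial protein that binds the smallest ribosomal RNA, had 102 and 118 CPM. Mrpl50, specific to mitochondria, had 92.6 and 124 CPM. Mrpl15, which has a bacterial relative, had 104 and 101 CPM. Mrps30 had 91.9 and 101 CPM, and Mrpl53 had 67.4 and 84.6 CPM. Both are mitochondrion-specific proteins of the large subunit. These completed the first 10 of the large subunit.

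The small subunit was led by Mrps21, with 162 and 208 reads, or 120 and 153 CPM. Mrps14 had 111 and 138 CPM, and Mrps24 had 102 and 121 CPM. All 3 have bacterial relatives and were higher in replicate 2. The mitochondrion-specific Mrps33 had 72.6 and 91.9 CPM, and Mrps23 had 78.6 and 83.8 CPM. Mrps7, a core protein of the head of the small subunit in bacteria, had 77.1 and 79.4 CPM. Mrps5 had 81.5 and 73.5 CPM, Mrps17 had 72.6 and 69.1 CPM, and Mrps15 had 66.7 and 70.6 CPM. Mrps26, mitochondrion-specific, closed the first 10 with 58.5 and 48.5 CPM. Mrps36 had 141 and 158 reads, or 104 and 116 CPM, close to Mrps24.

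The scarcest gene was Mrpl19, a large subunit protein with a bacterial relative, with 13 and 15 reads, or 9.63 and 11.0 CPM. Mrps2 had 16 and 24 reads (11.9 and 17.6 CPM), and Mrpl47 had 21 and 22 reads (15.6 and 16.2 CPM). Mrps6 had 22.2 and 17.6 CPM. Mrpl41 had 17.0 and 27.9 CPM, Mrpl46 had 26.7 and 19.1 CPM, and Mrpl22 had 26.7 and 27.2 CPM. In the small subunit, Mrps35 had 27.4 and 24.3 CPM, Mrps22 had 22.2 and 34.6 CPM, and Mrps12, whose bacterial relative helps in decoding, had 30.4 and 33.1 CPM. The proteins are made for assembly into 1 particle, while the messengers of the first and last genes of the order lay 23.3-fold apart in CPM.

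**Figure D1:**
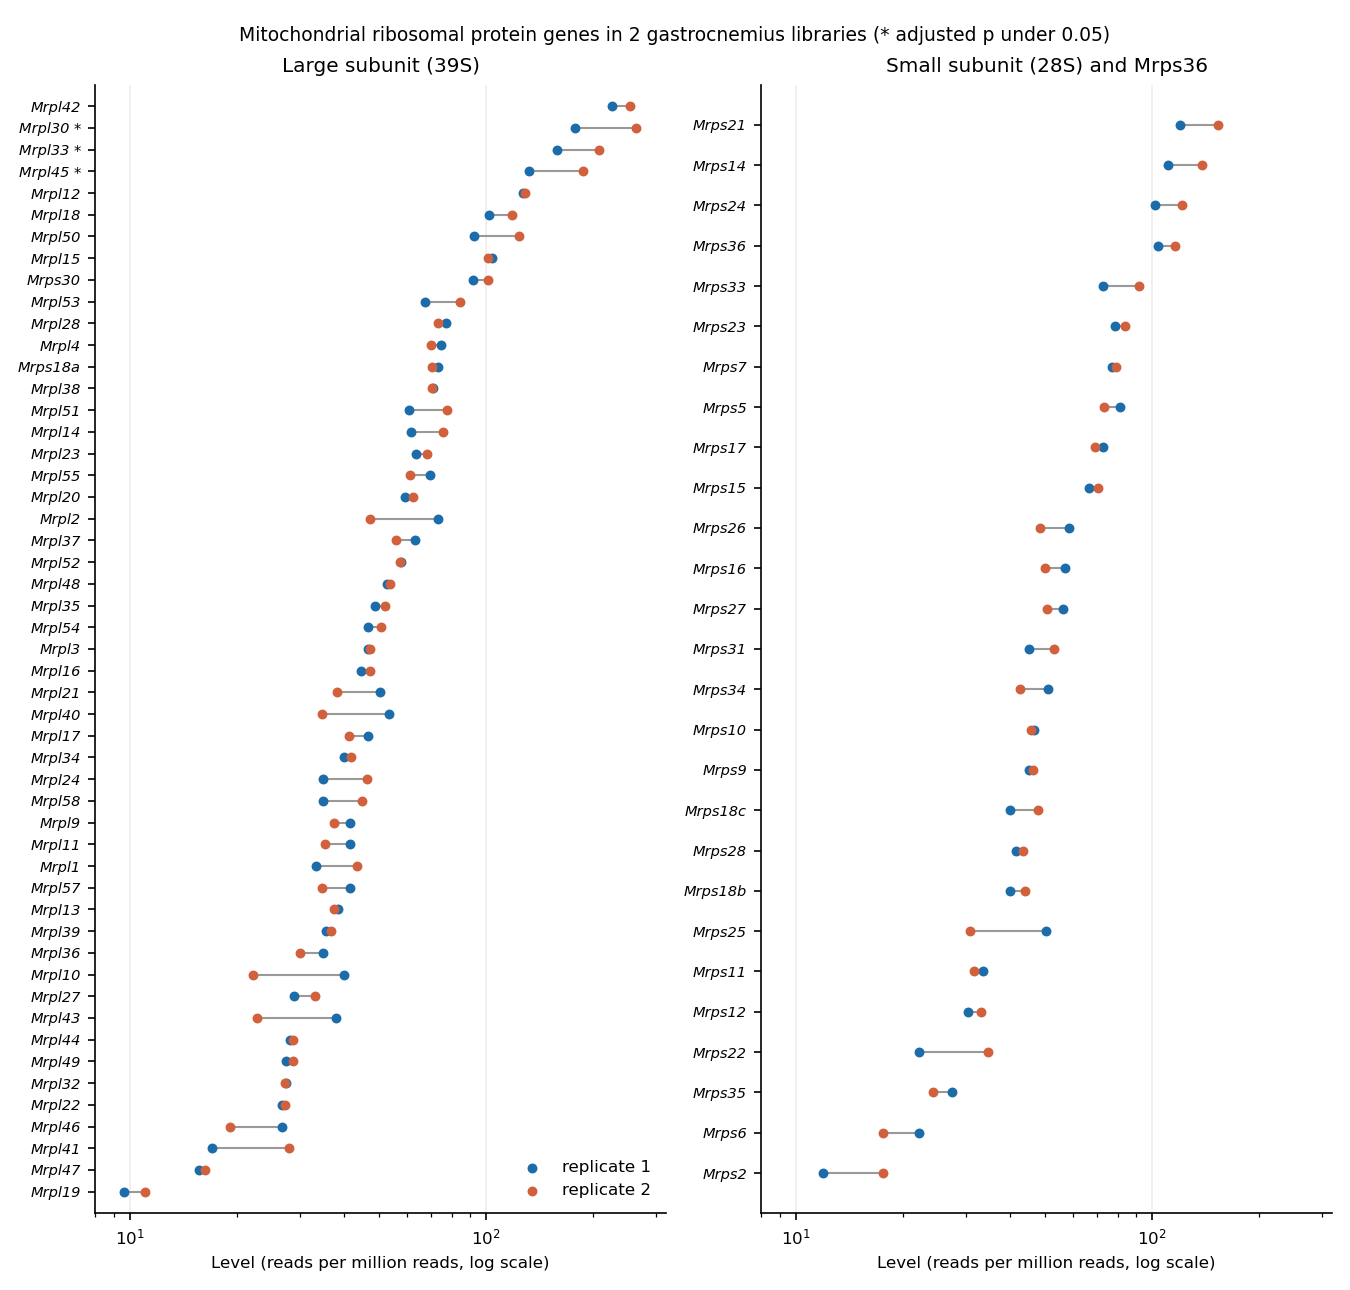
Level of each gene in CPM on a log axis, with replicate 1 in blue and replicate 2 in orange, for the large subunit (left) and for the small subunit with Mrps36 (right). Most pairs of points lie close together and overlap with those of their neighbours, from Mrpl42 at 226 and 254 down to Mrpl19 at 9.63 and 11.0.

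Most of these messengers were short. The annotated transcript with the most reads had a median length of 1284 bases over the 78 genes, against 2769 bases over 11301 protein-coding genes and 799 bases over the cytosolic ribosomal proteins. Each long read counts 1 molecule whatever its length, so division by length is an alternative scale and not a correction of the levels. Divided by the length of that annotated transcript, the order of levels kept 7 of its first 10 genes. On that scale Mrpl42 had 363 CPM per 1000 bases, Mrps21 had 280 and Mrpl30 had 227. The place of Mrpl33 depended on the transcript used: it had 236 CPM per 1000 bases by its leading annotated transcript, which retains an intron and held 1 and 8 reads. By the unannotated spliced structure of 465 bases that held nearly all of its reads, an alternative added with the values known, it had 392 and stood above Mrpl42. The first 10 genes were the same 10 under both choices. Mrpl52, with 57.8 and 57.4 CPM and a transcript of 418 bases, rose to sixth at 138 CPM per 1000 bases. Mrpl19, with a transcript of 5000 bases, was last on both scales, at 2.07 CPM per 1000 bases.

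Gene by gene, the 2 libraries held much the same amounts of these messengers. The fold of replicate 2 over replicate 1 ran from 0.551 (Mrpl10, 54 and 30 reads) to 1.64 (Mrpl41, 23 and 38 reads), and it was under 1.5 in either direction for 71 of the 78 genes. The median log2 ratio, on the scale of CPM + 1, was 0.04, with 46 genes above 0 and 32 below, against a median of -0.01 over all 9341 genes with at least 10 reads summed. Fisher's exact test with Benjamini-Hochberg adjustment over those 9341 genes called 3 of the 78, all higher in replicate 2. Over all genes tested, 7.82% were called, and 4.25% were called as higher in replicate 2. The 3 of 78 thus stood near the share called as higher in replicate 2 and below the share called in either direction. At an unadjusted p under 0.05 there were 10 of 78, against 1663 of all 9341 genes tested.

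The called genes directly followed Mrpl42 in the order by CPM. Under counting error alone, the same fold gives a smaller p in a gene with more reads. Mrpl30 (chromosome 1, 37890477 to 37898535, GRCm38, plus strand) was 1.48-fold higher in replicate 2 (95% interval 1.25 to 1.74, log2 0.56, Fisher's exact test, adjusted p = 1.14e-04). Mrpl45 (chromosome 11, 97315716 to 97329920) was 1.42-fold higher (1.17 to 1.71, log2 0.50, Fisher's exact test, adjusted p = 0.00785). Mrpl33 (chromosome 5, 31596935 to 31664384) was 1.31-fold higher (1.10 to 1.56, log2 0.39, Fisher's exact test, adjusted p = 0.0408). An edgeR exact test with an assumed dispersion of 0.01 between animals, a spread of 10% in each gene, ended all 3 calls. Its adjusted p were 0.329, 0.522 and 0.710 in the same order. Of all 9341 genes tested, it called 173. Leaving the reads of single-exon models out ended the call of Mrpl30 (adjusted p = 0.292 by Fisher's exact test), and leaving out mitochondrial and spike-in reads ended that of Mrpl33 (adjusted p = 0.0752) and called Mrpl2 instead.

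Other genes had ratios as far from 1 but did not pass the test. Mrpl2, a core protein of the peptidyl transferase centre in bacteria, had 99 and 64 reads, a fold of 0.641 (0.469 to 0.877) and an adjusted p of 0.0688 by Fisher's exact test. Mrpl10, of the stalk base, had a fold of 0.551 (0.354 to 0.858) with an adjusted p of 0.0895 by Fisher's exact test. Mrps25, specific to mitochondria, had 68 and 42 reads and a fold of 0.613 (0.418 to 0.898), with an adjusted p of 0.118 by Fisher's exact test. In the scarce Mrpl41 the interval of the fold ran from 0.982 to 2.74.

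**Figure D2:**
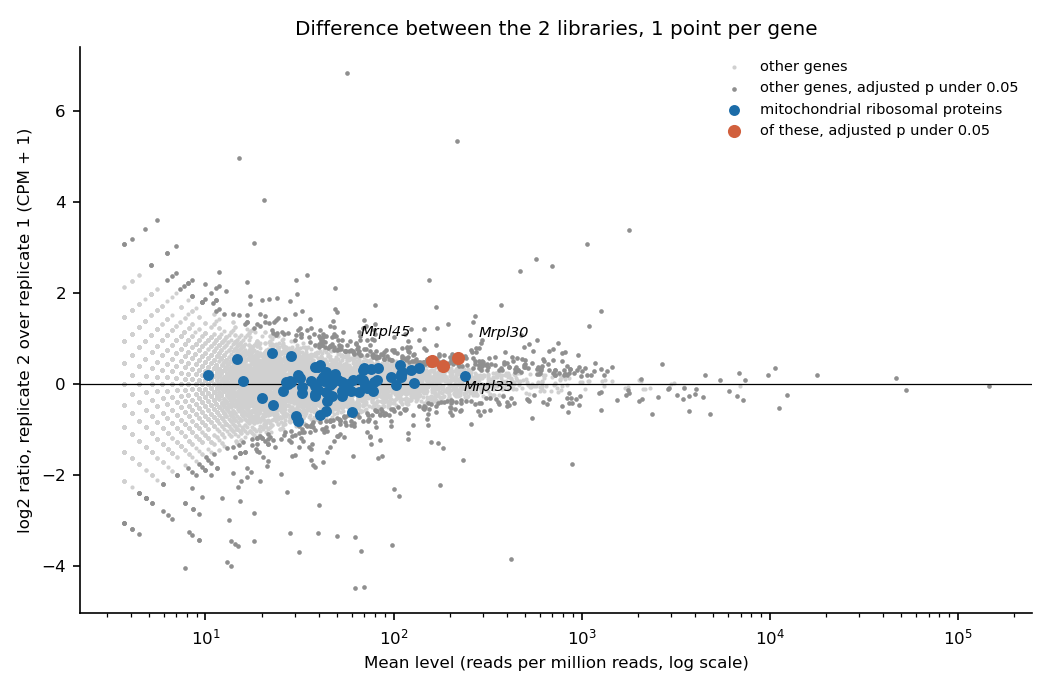
Log2 ratio of replicate 2 to replicate 1 against the mean level on a log axis, 1 point for each of 9341 genes. The 78 mitochondrial ribosomal protein genes (blue, or orange for the 3 called) lie in a narrow band around 0, inside the cloud of other genes.

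Other genes of mitochondrial translation were listed for comparison. Over all 9341 genes tested, Fisher's exact test called 7.82%, and 1663 genes had an unadjusted p under 0.05. The edgeR exact test with the assumed dispersion called 173 of them, and 874 had an unadjusted p under 0.05. Subunits of the ribosome with other names, 5 genes, summed to 304 and 373 CPM, and 2 of them were higher in replicate 2 by Fisher's exact test. These were Gadd45gip1 of the large subunit (128 and 192 reads, 1.49-fold, adjusted p = 0.0104) and Chchd1 of the small subunit (70 and 110 reads, 1.56-fold, adjusted p = 0.0471). Both calls were lost with the edgeR exact test at the assumed dispersion, which was applied to these lists after the data were seen (adjusted p = 0.450 for each). Aurkaip1 had 74.1 and 66.9 CPM, Ptcd3 had 47.4 and 55.9 CPM, and Dap3, a GTP-binding protein of the small subunit, had 35.6 and 27.9 CPM. The other-named subunits thus lay within the range of the 78 genes.

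Of 25 tested genes for assembly of the ribosome and modification of its RNA, 0 passed Fisher's exact test, and 0 had an unadjusted p under 0.05. The 26 genes of that list with a read summed to 580 and 579 CPM. They were led by Rcc1l (47.4 and 55.9 CPM), Dhx30 (48 and 68 reads) and Malsu1 (38.5 and 45.6 CPM). The edgeR exact test with the assumed dispersion also called 0 of the assembly genes and 0 of the synthetases, with 0 in either list at an unadjusted p under 0.05. Of 19 aminoacyl-tRNA synthetases of mitochondria, 0 passed Fisher's exact test and 2 had an unadjusted p under 0.05. They summed to 633 and 618 CPM, led by Kars (121 and 105 CPM) and Gars (107 and 79.4 CPM), which also serve the cytosol, and by Iars2 (57.8 and 59.6 CPM). Of 16 translation factors and RNA-binding proteins, 1 was called: Slirp, which guards mitochondrial messengers with Lrpprc, had 108 and 158 reads (1.45-fold, Fisher's exact test, adjusted p = 0.0428). With edgeR at the assumed dispersion its adjusted p was 0.536. Gfm1, an elongation factor, had 122 and 133 CPM, and Lrpprc had 115 and 139 CPM.

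The ribosomal RNAs and messengers of the mitochondrial genome were also compared between the libraries. All reads of that genome made up 0.176% of replicate 1 and 0.247% of replicate 2. How fully these RNAs were captured was not tested, so their counts are not read as amounts in the tissue. The 2 mitochondrial ribosomal RNAs carried 44 and 103 reads in all, and both were higher in replicate 2 by Fisher's exact test: mt-Rnr2 with 32 and 70 reads (2.17-fold, adjusted p = 0.00528) and mt-Rnr1 with 12 and 33 reads (2.73-fold, adjusted p = 0.0358). With edgeR at the assumed dispersion both calls were lost (adjusted p = 0.0995 and 0.176). The 12 mitochondrial messengers with a read summed to 1697 and 2345 CPM. Of the 9 tested, 4 were higher in replicate 2 and none lower. They were mt-Cytb (416 and 882 reads, 2.10-fold, Fisher's exact test, adjusted p = 8.09e-36), mt-Co1 (1064 and 1264 reads, 1.18-fold, adjusted p = 0.00223), mt-Nd1 (190 and 268 reads, 1.40-fold, adjusted p = 0.00808) and mt-Co2 (39 and 76 reads, 1.93-fold, adjusted p = 0.0139). Of these 4, edgeR at the assumed dispersion kept mt-Cytb (adjusted p = 2.52e-04). Of 76 tested nuclear genes of the respiratory chain, 37 were higher in replicate 2 and 2 lower by Fisher's exact test. With edgeR at the assumed dispersion 0 were called, and 11 had an unadjusted p under 0.05. Over all 9341 genes tested, 397 were higher and 333 lower by Fisher's exact test. For edgeR that background was 173 called and 874 at an unadjusted p under 0.05. The ratio of the summed levels was 1.14 for the respiratory chain, 1.38 for the mitochondrial messengers and 1.07 for the 78 genes. The slow fibre markers moved the same way with a summed ratio of 5.82, 9 of 10 being called higher by Fisher's exact test and 8 of 10 being called by edgeR at the assumed dispersion. That test also called 9 of 10 adipocyte markers and 5 of 8 tested nerve and Schwann cell markers. The part of these markers in any of the differences was not tested.

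In structure, the messengers of these genes mostly followed the annotation. The deposited tables assign each read to a transcript model, which is either annotated or one of several unannotated classes. Reads on annotated transcripts made up 87.4% of the reads of the 78 genes in replicate 1 (95% Wilson interval 86.6% to 88.2%) and 85.0% in replicate 2 (84.1% to 85.8%). Over all protein-coding genes the shares were 65.6% and 65.1%, while over the cytosolic ribosomal proteins they were 87.0% and 83.3% and over the respiratory chain 86.5% and 85.0%. Transcript length differs between these sets, as given above, and its part in the shares was not tested. These shares and those of the classes below are pooled over reads, so genes with many reads weigh most. The 10 muscle fibre markers alone took 26.3% and 25.4% of all reads. The share over protein-coding genes is thus not that of a typical gene.

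The unannotated reads fell into few classes. Models with an unannotated splice site took 5.47% and 5.83% of the reads of the 78 genes, against 18.7% and 18.1% over protein-coding genes, and without Mrpl33 they took 2.25% and 1.98%. Unannotated models of 1 exon took 4.22% and 6.24%, against 2.88% and 3.80%, and the share was higher in replicate 2 in both sets. Mrpl30 alone held 128 of the 268 such reads of the 78 genes in replicate 1 and 214 of the 427 in replicate 2. Without that gene the shares of the set lay below those over protein-coding genes. Incomplete splice matches, which hold part of an annotated intron chain, took 1.58% in each library, against 7.17% and 7.73%. New combinations of annotated splice sites took 1.34% and 1.37%, against 5.65% and 5.27%. Annotated transcripts that retain an intron took 0.867% and 0.716% of reads.

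**Figure D3:**
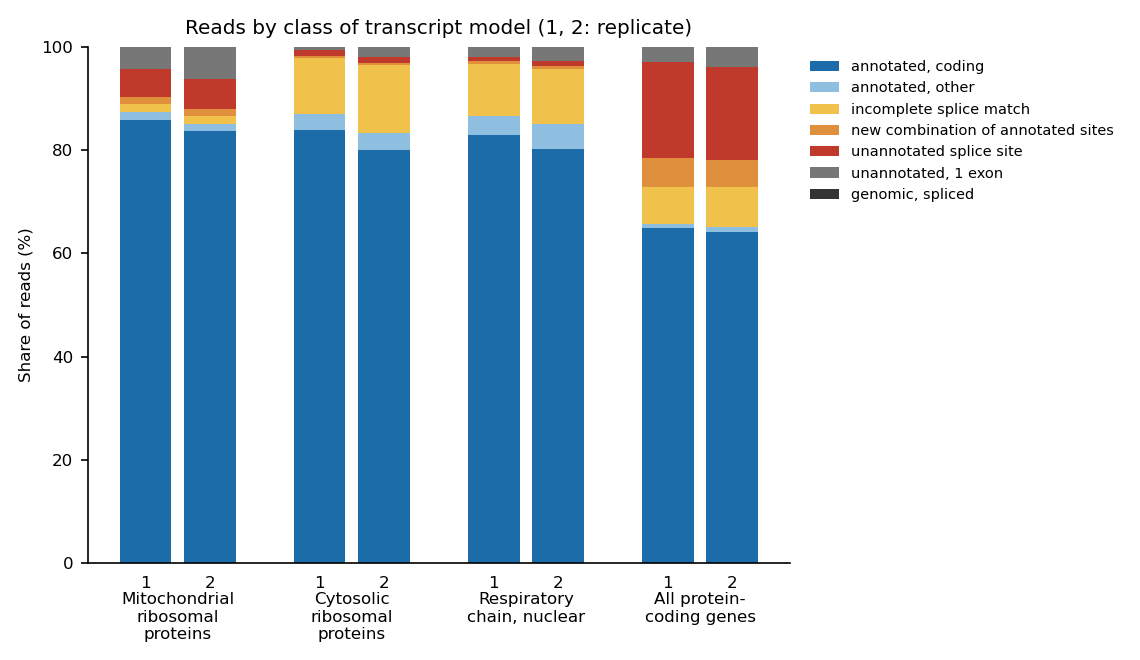
Share of reads (%) by class of transcript model in replicates 1 and 2 for the mitochondrial ribosomal proteins and 3 other sets. Annotated transcripts make up 87.4% and 85.0% of the reads in the first set, and 65.6% and 65.1% over all protein-coding genes.

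In 75 of the 78 genes the structure with the most reads was an annotated coding transcript. The exceptions were Mrpl33, Mrpl30 and Mrpl24. The leading structure held a median of 90% of a gene's reads, against 77.7% over 4752 protein-coding genes with 50 or more reads, and 39 genes had a share of 90% or more. In all 569 structures were seen, of which 237 were found in both libraries and 274 rested on 1 read. Among genes with at least 50 reads, the highest annotated shares were those of Mrps30 (99.6%), Mrpl34 (99.1%), Mrpl53 (99.0%), Mrps21 (98.4%), Mrpl21 (97.5%) and Mrpl49 (97.4%). The lowest were those of Mrpl33 (2.63%), Mrpl30 (41.7%), Mrpl24 (43.6%), Mrps22 (61.0%), Mrpl10 (75.0%) and a pair at 75.5%, Mrpl39 and Mrpl51.

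**Figure D4:**
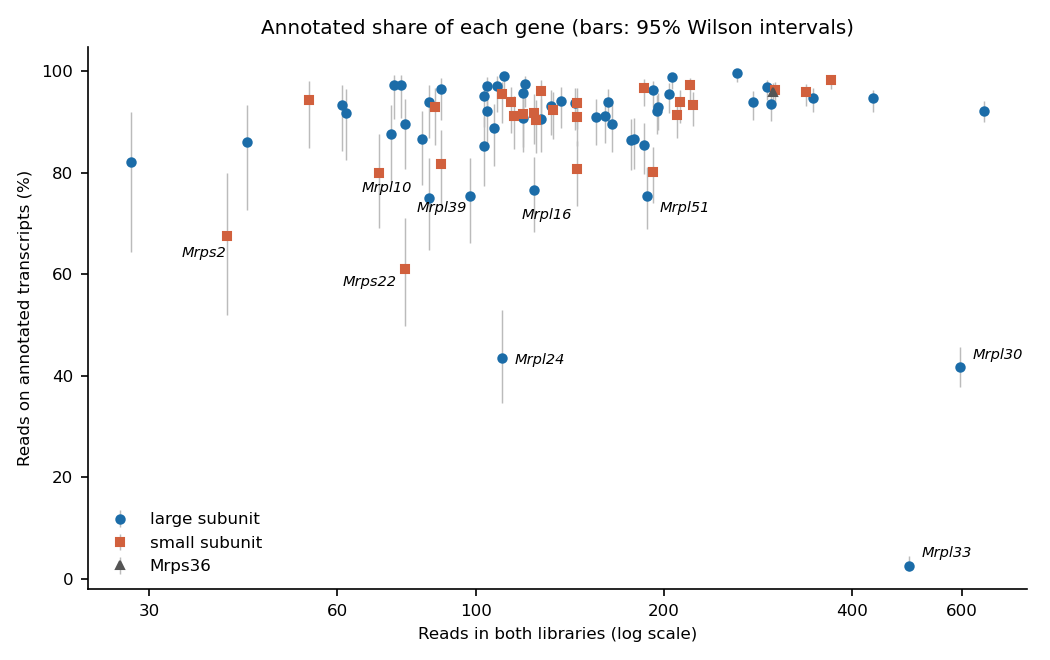
Share of each gene's reads on annotated transcripts (%) against its reads in both libraries on a log axis, with 95% Wilson intervals as bars. Most genes lie between 75% and 100%, with Mrpl33 at 2.63%, Mrpl30 at 41.7% and Mrpl24 at 43.6% below them.

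Mrpl33 had the lowest annotated share by far, and nearly all of its reads were on 1 unannotated spliced structure. Its annotated coding transcript has 4 exons, and exon 2 is only 19 bases long (chromosome 5, 31614603 to 31614621). That structure, of 3 exons, held 207 of the 213 reads in the first library and 267 of the 281 in the second, or 96.0% in all. It lacks exon 2 and extends exon 1 by 8 bases (31614023 to 31614030). The sequences below show the junction as annotated and as in the leading structure, with 10 bases of exon 1 and of exon 3 in lower case and in capitals the bases between them, which are exon 2 in the first line and the extension in the second (GRCm38, plus strand, from the GENCODE transcripts).
Mrpl33, annotated: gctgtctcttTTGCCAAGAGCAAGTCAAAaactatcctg
Mrpl33, leading structure: gctgtctcttGTAAGTCGaactatcctg

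Exon 2 was included in 1 of 210 informative reads of replicate 1 (0.476%, 95% Wilson interval 0.0841% to 2.65%) and in 1 of 270 of replicate 2 (0.370%, 0.0654% to 2.07%). In the genome the extension GTAAGTCG begins right after the annotated end of exon 1 and is itself followed by GT. Of its 8 letters, 6 match the stretch of exon 2 that starts at base 10 of the exon, which reads GCAAGTCA. Read from the annotated start codon, the annotated transcript has 65 codons before a stop and the leading structure has 42, while a transcript that only skipped exon 2 would have 7. The 8 bases in place of 19 make the structure 11 bases shorter at this junction. The tables give models and not the bases of reads, so whether the RNA molecules carried the bases of exon 2 was not tested.

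The size of that exon set it apart from the others of these genes. Among internal coding exons held by every annotated coding transcript that spans them, Mrpl33 exon 2 was the only 1 of up to 20 bases in the 78 genes. The 6 exons of 31 to 40 bases and the 15 of 41 to 60 bases had a median inclusion of 100%, the lowest being 98.1% (Mrpl58, 37 bases). Over all protein-coding genes, 27 of 41 such exons of up to 20 bases (65.9%) were in under 50% of informative reads, with a median inclusion of 0%. Of 238 exons of 21 to 30 bases 4.62% were, and of 559 exons of 31 to 40 bases 0.179%. The low inclusion of the shortest exons was thus shared by many genes.

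**Figure D5:**
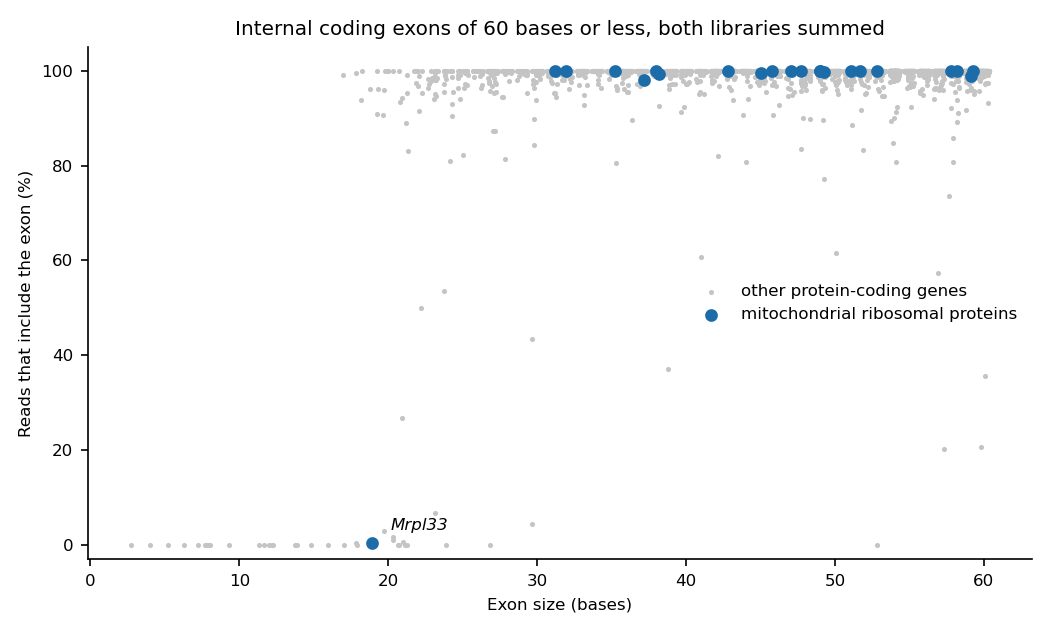
Share of informative reads that include an exon (%) against exon size in bases, for internal coding exons of up to 60 bases that every annotated coding transcript spanning them holds, with at least 20 informative reads in all, points being shifted slightly sideways to part them. Mrpl33 exon 2, at 19 bases and 0.417%, lies among other very short exons near 0, while the longer exons of this kind in the mitochondrial ribosomal proteins lie at 98.1% to 100%.

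Mrpl30 and Mrpl24 owed their low annotated share to models of 1 exon. In Mrpl30, 128 of 240 and 214 of 357 reads were on an unannotated single-exon model, deposited in replicate 1 as 200 bases (37898165 to 37898364) and in replicate 2 as 174 bases from the same start, inside the last annotated exon of 475 bases. The full annotated transcript of 6 exons took 100 and 114 reads. Spliced models of all kinds took 112 and 143 reads, so most of the difference between the libraries in Mrpl30 lay in the single-exon reads. In Mrpl24, a large subunit protein with a bacterial relative, 23 of 47 and 38 of 63 reads were on a single-exon model whose deposited span is 1 base, so the deposited ends of such models are not the ends of the reads. Its leading annotated coding transcript took 15 and 11 reads, and the next took 7 and 11 reads, both with 6 exons.

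Single-exon reads recurred in other genes at lower shares. They made up 21.8% of the reads of Mrpl16 (12 and 15 reads), 32.5% of those of Mrps2 (2 and 11 reads) and 23.4% of those of Mrpl51 (9 and 35 reads). In Mrps22, the second structure was an incomplete splice match of 5 exons in place of 8 (9 and 20 reads, 37.7%). In Mrpl39, incomplete splice matches took 15.3% of reads. Besides Mrpl33 and Mrps22, the unannotated spliced structures with at least 5 reads in each library were those of Mrpl42 (12 and 8 reads), Mrps17 (6 and 9 reads) and Mrps27 (9 and 5 reads).

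Several small subunit genes split their reads between annotated coding transcripts. Mrps10 had 34 and 31 reads on its first transcript and 22 and 25 on its second, both of 7 exons. Mrps12 had 22 and 29 reads on a transcript of 3 exons and 16 and 13 on another of 2. In Mrps23 the first transcript took 74.5% and the second 22.3% of reads. Mrps17 spread over more annotated coding transcripts, the first 3 of which took 46.4%, 13.5% and 11.5% of reads. In the large subunit, Mrpl55 had 51 and 37 reads on its first transcript and 18 and 20 on its second.

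The leading structure's share was tested between the libraries in 76 of the 78 genes, those with at least 20 reads in each library and more than 1 structure. Fisher's exact test adjusted over 4881 genes called 0 of them, against 1.70% called of all genes tested. An unadjusted p under 0.05 was found in 2 of the 76. The smallest p was that of Mrpl51, whose leading share was 79.3% (69.3% to 86.6%) and 63.2% (53.7% to 71.8%), with an adjusted p of 0.420 by Fisher's exact test. Of 9 alternative internal exons in these genes, 0 were called and 0 had an unadjusted p under 0.05, against 0.392% of 1530 exons called. The 170-base exon of Mrpl10, for example, was included in 93.6% and 92.6% of reads.

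Mrpl13 and Mrps27 held the clearest alternative exons. The 94-base exon of Mrpl13 (chromosome 15, 55548142 to 55548235, minus strand) was included in 37 of 49 reads (75.5%, Wilson interval 61.9% to 85.4%) and in 33 of 44 (75.0%, 60.6% to 85.4%). A transcript of Mrpl13 annotated as a target of nonsense-mediated decay took 10 and 11 reads, or 20.4% in all. The 123-base exon of Mrps27 (chromosome 13, 99401270 to 99401392) was included in 9 of 70 reads (12.9%, 6.91% to 22.7%) and in 6 of 68 (8.82%, 4.11% to 17.9%). Some annotated exons were in models that held few or no reads in these libraries. A 47-base coding exon of Mrpl42 was in 2.97% and 1.16% of reads. A 24-base coding exon of Mrpl4 (chromosome 9, 21005863 to 21005886) was in 0 of 101 and 0 of 94 reads, which allows shares of up to 2.97% and 3.19% when a count of 0 is read as at most 3 reads. A 165-base noncoding exon of Mrpl3 was in 0 of 62 and 0 of 60, which by the same limit allows up to 4.84% and 5.0%. The exon of Mrpl4 is shown because no read held it.
Mrpl4, unused exon: GTGGAGTCTTACCATGAAGTACAG

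The genes lie on 17 chromosomes, and many share a start region with a neighbour. In 33 of the 78 (42.3%) the annotated start of another protein-coding gene lay on the opposite strand within 1000 bases of the gene's own start. The share was 15.6% over 13054 protein-coding genes with a read, 19.8% for the cytosolic ribosomal proteins and 35.4% for the respiratory chain. Mrps11 and Mrpl46, of different subunits, are such neighbours of each other. Mrps12 lies beside Sars2, a synthetase of mitochondria, Mrpl43 beside Twnk, the mitochondrial DNA helicase, and Mrpl36 and Mrpl47 beside Ndufs6 and Ndufb5 of the respiratory chain. In addition, 4 genes overlap a protein-coding gene on the same strand and 23 on the opposite strand. Whether reads were counted by strand is not given in the sources used here, so for these genes some reads could belong to the partner. The processed pseudogene Mrpl23-ps1 carried 40 and 55 reads and Mrps36-ps1 carried 3 and 2, so reads of Mrpl23 and Mrps36 could be split with a close copy.

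Promoters were searched in RefSeq sequences (GRCm38.p6) of 300 bases around annotated starts, which held 69 of the 78 genes. Some genes, such as Mrpl2, Mrps16 and Mrpl48, had more than 1 such sequence, and a motif in any of them counted for the gene. The ETS site of Mrpl48, for example, was in a sequence at 100583081 to 100583380, inside the gene (100545751 to 100608301). The shares below are thus shares of genes. The motifs were chosen as textbook ones for genes of mitochondrial function. The core of the nuclear respiratory factor NRF1 is GCATGCGC, or GCGCATGC as its reverse complement. It was in 11.6% of the 69 genes, against 3.05% of all 27025 genes in the table. The ETS-type site CCGGAAGT (or ACTTCCGG) was in 17.4% against 4.31%, and the YY1 core AAGATGGC (or GCCATCTT) in 17.4% against 3.19%. The Sp1 core GGGCGG (or CCGCCC) was in 49.3% against 38.2%. The table holds genes of all kinds, many without reads here. For sets closer to these genes the table held under 80% of members, so no check rests on them and their shares are given as values alone. In 10161 of 13037 protein-coding genes with reads the shares were 5.79%, 8.65%, 5.08% and 67.8% in the same order. In 62 of 78 symbols of the respiratory chain they were 14.5%, 8.06%, 14.5% and 37.1%, and in 61 of 81 cytosolic ribosomal proteins 4.92%, 19.7%, 9.84% and 62.3%. By count, the NRF1 core was in 8 of the 69 genes described here and in 9 of the 62 of the respiratory chain. The ETS site was in 12 of the 69 and in 12 of the 61 of the cytosolic ribosomal proteins. For Sp1 the direction turned with the set compared. A match is a description and not a bound site.

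Mrpl33, Mrpl32 and Mrps27 were the only genes of the set with more than 1 of the first 3 motifs, and their promoters are printed for that reason, 5′ to 3′ on the gene's strand with all matches to the 4 motifs in capitals. They are chr5:31613701-31614000 (plus strand), chr13:14612988-14613287 (minus strand) and chr13:99344536-99344835 (plus strand).
Mrpl33: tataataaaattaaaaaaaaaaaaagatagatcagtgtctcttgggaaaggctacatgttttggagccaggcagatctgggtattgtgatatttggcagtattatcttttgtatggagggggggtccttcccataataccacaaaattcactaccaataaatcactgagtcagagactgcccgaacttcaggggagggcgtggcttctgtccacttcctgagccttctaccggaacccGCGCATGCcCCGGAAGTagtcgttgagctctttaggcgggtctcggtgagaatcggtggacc
Mrpl32: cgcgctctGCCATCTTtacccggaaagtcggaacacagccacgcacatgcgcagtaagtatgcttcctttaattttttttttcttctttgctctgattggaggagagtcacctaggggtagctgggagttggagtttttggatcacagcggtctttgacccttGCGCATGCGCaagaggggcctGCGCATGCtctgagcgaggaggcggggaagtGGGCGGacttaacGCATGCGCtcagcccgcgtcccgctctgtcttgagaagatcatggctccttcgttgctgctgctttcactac
Mrps27: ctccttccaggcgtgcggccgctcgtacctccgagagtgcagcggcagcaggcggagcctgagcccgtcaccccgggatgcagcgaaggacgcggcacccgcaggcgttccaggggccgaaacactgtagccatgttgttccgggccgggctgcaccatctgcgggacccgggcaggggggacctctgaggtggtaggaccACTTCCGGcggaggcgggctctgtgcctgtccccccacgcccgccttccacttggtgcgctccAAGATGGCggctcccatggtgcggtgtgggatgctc

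In Mrpl33 the NRF1 core and the ETS site stand next to each other, 1 base apart, at the RefSeq start, which the ETS site spans. In Mrpl32 the NRF1 core occurs 4 times, 2 of them overlapping, and in Mrps27 the YY1 core lies just after the start. The levels of these genes were 158 and 207 CPM for Mrpl33, 27.4 and 27.2 CPM for Mrpl32, and 56.3 and 50.7 CPM for Mrps27, so genes with these motifs stood both high and low in the order.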

How the data were processed

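Long-read RNA sequencing was deposited as raw counts of reads per transcript model, 1 table and 1 annotation for each of 2 libraries of 1 group. Per the deposited notes, the authors used build mm10 with GENCODE release 21, and the deposited annotation names TALON as the source of its models. The sources used here do not give the aligner, read filters or platform. Gene sums of these counts were divided by all reads of the library (1349298 and 1359923 reads with spike-ins) to give CPM. The genes, lists and tests were chosen with earlier results of these data known. Genes named in the text are those with the most or fewest reads, the called genes, those with extreme annotated shares and the leading unannotated structures. Two-sided Fisher's exact tests compared genes (at least 10 reads summed), leading structures (at least 20 reads per library) and internal exons (at least 20 informative reads per library, inclusion 5% to 95%), p-values being adjusted by Benjamini-Hochberg and called under 0.05. They were tested on simulated reads that varied by counting error alone, so that check does not cover differences between animals. Unannotated models of 1 exon were pooled per gene. Gene ends come from the GENCODE annotation, since gene lines deposited by the authors did not always span the transcripts. Python 3.11.15, scipy 1.17.1, R 4.3.3, edgeR 4.0.16 and DESeq2 1.42.0 (size factors alone, as an alternative) were used.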

Additional observations from a re-analysis of the deposited data

How the results depend on the processing

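No paired analysis was possible because there is 1 group. The count of called genes, 3 of 78, was 1 with annotated transcripts alone (Mrpl45). There Mrpl30 had an adjusted p of 0.240 and Mrpl33 of 0.302 by Fisher's exact test. The count was 0 with edgeR's exact test at an assumed dispersion of 0.01, where 4 of the 78 had an unadjusted p under 0.05. Over all 9341 genes that edgeR test called 173, and 874 had an unadjusted p under 0.05. With no minimum of reads Mrpl33 had an adjusted p of 0.0670, and 2 genes were called. The other 6 settings gave 2 or 3 calls, and none of the ratios of the 3 genes changed sign. The mean summed level, 4868 CPM, was 6473 CPM of reads on annotated transcripts alone and 5113 CPM of reads on models with 2 or more exons, the denominators being smaller by construction. It was 4702 to 5033 CPM with either library alone. The ratio of large to small subunit, 2.17, was 1.96 with annotated transcripts alone, where Mrpl33 and most reads of Mrpl30 drop out, and 2.15 to 2.19 with either library alone. The annotated share, 86.2% on average, was 88.7% over models with at least 2 reads, 90.9% over models with 2 or more exons, and 85.0% to 87.4% with either library alone. Of the 10 genes first by CPM, 8 stayed there with annotated transcripts alone. Per length, 7 stayed there by either transcript used. The tests of leading structures and exons called 0 in each of their 5 alternatives. Depth limited the scarce genes most, since at 13 and 15 reads the fold of Mrpl19 had an interval of 0.554 to 2.37.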
